A study of Homo sapiens and Mus musculus with 22 samples.

Results

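This comparison sets 2 RNA sequencing libraries of L929, a mouse fibroblast line, against each other: 1 from cells labelled cGAS KO and 1 from cells labelled cGAS WT, both treated with 10 µM BIX-01294 (BIX) for 12 h. BIX inhibits the histone methyltransferases EHMT1 and EHMT2, which place methyl groups on lysine 9 of histone H3. Its members are the genes with an FPKM (a fragment count scaled to transcript length and to library size) of at least 1 in 1 of the 2 values, short non-coding RNA genes left out. They numbered 11358 of the 22723 such genes in the L929 table and came from 2 of the 22 samples of the series. The series also holds mock-treated libraries of both L929 genotypes, 1 each, which are given here as the untreated background, and RNA and H3K9me3 libraries of U2OS, a human osteosarcoma line, with SETDB1 KO, ATG5 KD or their controls. A treatment note shared by all RNA samples says that the cells received BIX, whereas part of the samples carry the word mock, and the sample labels were followed. KO and WT stand for the labels throughout. The sources used here do not give how the KO was made, which part of the gene it removes, whether the KO cells are 1 clone or whether the WT cells are their parent. With 1 library a side there was no replicate and no test, so every difference below is between 2 libraries and includes any lasting difference between the 2 lines.

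cGAS is an enzyme that binds double-stranded DNA in the cytosol and makes a cyclic dinucleotide. This second messenger binds the adaptor STING, which recruits the kinase TBK1, and TBK1 activates the transcription factor IRF3. IRF3, together with NF-kappaB, switches on type I interferon and chemokine genes. Secreted interferon then acts through its receptor, the JAK kinases and a transcription factor complex that holds STAT2 and IRF9 on a large set of interferon-stimulated genes. Some of these, among them Ifit1, Rsad2 and Isg15, can also be switched on by IRF3 itself.

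The WT BIX library held 0.736 of the reads of the KO BIX library, as judged from the steps in which low FPKM values move, while the 2 mock libraries held 0.987 (WT) and nearly the same number (KO) as KO BIX. Over all members the median difference of log2(FPKM + 1), KO minus WT, was 0.03, so the 2 libraries were centred on each other. At least 2-fold apart on that scale were 11.7% of the 11358 genes. In KO 729 were higher (6.42%) and 598 lower (5.27%), and at least 4-fold apart were 107 and 73. In mock 7.84% of 11014 genes were 2-fold apart, 4.7% higher in KO and 3.13% lower. As a yardstick from another line, pairs of like U2OS libraries in the SETDB1 set had 0.159% to 0.255% of genes 2-fold apart, which cannot stand for the error of L929. Just inside the FPKM limit, 990 genes had a highest value from 1 to under 2 and a median difference of 0.07 (-1.56 to 1.51). Just outside it, 930 genes from 0.5 to under 1 had a median of 0.10 (-0.98 to 0.99). On the log2(FPKM + 1) scale a gene under FPKM 1 in both libraries cannot be 2-fold apart. The narrower range outside the limit was thus fixed beforehand. The L929 values above are descriptions of 4 libraries.

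**Figure D1:**
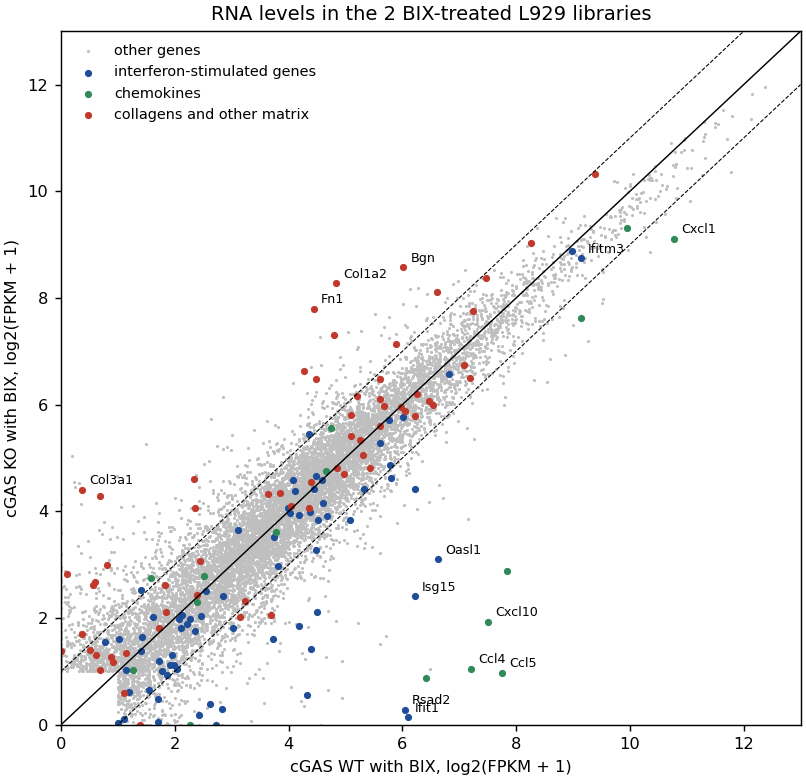
Each point is 1 of the 11358 genes, with log2(FPKM + 1) in the WT BIX library on the x axis and in the KO BIX library on the y axis; the solid line marks equal values and the dashed lines 2-fold. Ccl5 among the chemokine genes (green) and Ifit1 among the interferon-stimulated genes (blue) lie far below the lines and Col3a1 among the matrix genes (red) above them, while 47 of 71 interferon-stimulated and 42 of 63 matrix members lie between the lines.

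The targeted gene came first, as a check of the labels. Mb21d1, which encodes cGAS, stood at 4.41 FPKM in KO and 3.47 in WT with BIX, and at 1.19 and 2.82 in mock. The KO was thus lower than WT in mock and higher with BIX (log2 difference -0.80 and 0.27). An FPKM over the whole gene cannot show a small deletion or a frame shift, so these values do not check the label. Downstream of cGAS, RNA of the adaptor, kinase and transcription factor was under 2-fold apart on the log2(FPKM + 1) scale: Tmem173, the gene for STING, was at 11.2 in KO and 13.7 in WT, Tbk1 at 41.5 and 30.8, and Irf3 at 6.33 and 13.5 with BIX. Irf3 was close to the limit with BIX (log2 difference -0.98), and in mock it was at 17.9 and 19.9. Of the 35 genes on the list of cytosolic DNA sensing, 32 were members, with a median of -0.18. Of these 1 was at least 2-fold higher in KO and 5 lower, against 6.42% and 5.27% of all genes. Samhd1, for an enzyme that breaks down free deoxynucleotides, was the higher one (42.5 in KO and 19.5 in WT). Those on the lower side were Ticam1, an adaptor of Toll-like receptors (2.86 and 10.6), Rnaseh2c, a subunit of ribonuclease H2 (5.69 and 17.6), Slc19a1, a folate carrier that also takes up cyclic dinucleotides (28.4 and 67.2), Ifi203, of the AIM2-like receptor family (23.9 and 50.6), and Zbp1, a sensor of Z-form nucleic acids (0.143 and 1.37). Rnaseh2c was lower in KO in mock too (10.3 and 38.9), while the other 4 were under 2-fold apart there. Aim2, another DNA sensor of that family, was at 37.3 and 41.3 with BIX.

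Chemokine genes held the 2 largest differences of the comparison, Ccl5 and Ccl4. Of the 34 on the list 16 were members, 8 of them at least 2-fold lower in KO and 1 higher, against 5.27% and 6.42% of all genes. Their median was -1.07, or -0.33 over the listed genes above 0 in at least 1 BIX library, with no other FPKM limit. Ccl5, a chemokine for T cells and monocytes and a known target of IRF3, stood at 215 FPKM in WT BIX and 0.967 in KO BIX, against 0 and 0.243 in mock (log2 difference -6.78 with BIX). Ccl4 stood at 147 and 1.07 with BIX and at 0.55 and 0 in mock. Cxcl10, which attracts T cells through CXCR3, was at 182 and 2.82 with BIX and at 0.0957 and 0.188 in mock. In each of these 3 genes the WT BIX library was high and the other 3 libraries low. A second pattern was seen in Ccl3 and in the neutrophil chemokine genes Cxcl2 and Cxcl1, which were lower in KO without BIX as well. Ccl3 was at 84.8 in WT and 0.845 in KO with BIX and at 11.1 and 0 in mock. Cxcl2 was at 227 and 6.41 with BIX and at 9.75 and 0.096 in mock. For Cxcl1 the values were 1753 and 553 with BIX and 207 and 83 in mock, so KO BIX stood above both mock libraries and below WT BIX. Cxcl3, at 3.79 in WT BIX, was listed at 0 in KO BIX, and the monocyte chemokine gene Ccl7 was at 564 and 196. Other chemokine genes were under 2-fold apart: Ccl2 was at 982 and 638, Ccl20 at 24.2 and 25.9, and Ccl9 at 12.8 and 11.2. Ccl11, an eosinophil chemokine gene, was the one higher in KO (1.98 in WT and 5.71 in KO).

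Since several of these genes are also made by macrophages, the markers of that cell type are given beside them. Of 13 macrophage markers, 9 stayed under an FPKM of 1 in all 4 libraries, and Adgre1, Tyrobp and C1qb were listed at 0 in each. The summed level was 87.0 FPKM in WT BIX, 39.6 in KO BIX, 43.2 in WT mock and 11.1 in KO mock. Most of it, except in KO mock, came from Cd68, a lysosomal glycoprotein (80.3, 29.6, 41.2 and 5.11). The other 3 members of the list were higher in KO than in WT with BIX, by less than 2-fold on the log2(FPKM + 1) scale. They were Lyz2 (1.97 in KO and 0.94 in WT), Cd14 (2.4 and 1.03) and Fcgr1 (5.13 and 4.26). The part of such cells in the chemokine values was not tested. In bulk RNA fewer cells making a transcript and less transcript per cell cannot be told apart.

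The type I interferon genes themselves were at low levels. Of 17 interferon and interferon receptor genes 8 were members (median -0.07). Of these 1 was at least 2-fold higher in KO and 2 lower, against 6.42% and 5.27% of all genes. Ifnb1 was at 0.597 FPKM in WT BIX and 0.291 in KO BIX, both under the limit of 1, and listed at 0 in both mock libraries. Ifna4 was at 6.07 and Ifna1 at 1.5 in WT BIX, and both were listed at 0 in the other 3 libraries. Ifnab, another gene of the cluster, went the other way, with 5.06 in KO BIX and 0.24 in WT BIX and 0 in mock. The interferon alpha genes are close copies of each other, so reads could be split between them, and their single values are uncertain. The receptor genes were within 2-fold: Ifnar1 was at 5.56 in WT and 4.02 in KO with BIX, and Ifnar2 at 25.1 and 40.1.

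Of 27 JAK, STAT, IRF and SOCS genes, which carry the interferon signal, 22 were members. Of these 2 were at least 2-fold lower in KO and 0 higher, against 5.27% and 6.42% of all genes (median -0.05). The 2 were feedback inhibitors, Socs1 (9.97 in WT and 2.62 in KO) and the deISGylase Usp18 (7.11 and 2.51). Stat2 was at 8.88 and 3.99 and Irf7 at 1.94 and 0.713, lower in KO but under 2-fold on the log2(FPKM + 1) scale. Irf9 (20.3 and 23.1), Jak1 (46.6 and 44.9) and Tyk2 (2.72 and 2.65) were close in both. Irf1, a transcription factor that NF-kappaB induces, was higher in KO by just under 2-fold on that scale (8.43 in WT and 17.5 in KO).

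Antiviral effector genes were mostly lower in KO BIX than in WT BIX, to very different extents. Of the 84 measured, 66 were members, 21 were at least 2-fold lower in KO and 2 higher, and 56 lay below 0, with a median of -0.48. The share lower, joined with the interferon-inducible GTPases and the OAS family, was 22 of 71 (31.0%), against 5.27% of all genes. Ifit1, which binds viral RNA with foreign 5′ ends, was at 67.5 FPKM in WT BIX and 0.106 in KO BIX, and at 0.179 and 0.071 in mock. Rsad2, the gene for viperin, was at 64.9 and 0.218 with BIX and at 0.0244 and 0.0485 in mock. Both were thus near the mock level in KO BIX. Isg15, a ubiquitin-like modifier, was at 73.4 and 4.32 with BIX and at 3.21 and 2.54 in mock, and Oasl2 at 18.9 and 0.472 with BIX and 0.238 and 0.266 in mock. Oasl1, a translational repressor of Irf7, stood above its mock level in KO BIX: it was at 97.7 and 7.61 with BIX and at 0.544 and 1.17 in mock. So did Ifit3, with 21.7 and 3.35 with BIX and 0.291 and 0.144 in mock. Its near copy Ifit3b, at 5.6 in WT BIX, was listed at 0 in the other 3, and reads may be split between the 2 genes. Further down the order were Rtp4 (20.1 and 1.68), Samd9l (17.1 and 2.59), Mx2 (5.16 and 0.311), Gbp3 (2.24 and 0.0359) and Znfx1 (21.2 and 8.7). Some of the lower genes were as far apart in mock: the schlafen gene Slfn2 was at 12.2 and 2.05 with BIX and at 10.09 and 1.41 in mock. Bst2, which encodes tetherin, a protein that holds budding viruses at the cell surface, was at 54.7 and 23.6 with BIX and 67 and 20.6 in mock. Ube2l6, the conjugating enzyme gene of Isg15, was at 32.7 and 13.2 and at 49.2 and 17.3.

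Other members of the same list were at like levels in both BIX libraries. Ifi27 was at 112 in WT and 93.7 in KO with BIX, against 41.6 and 29.9 in mock, so it was more than 2-fold above its mock level in both genotypes. Isg20, an exonuclease gene, was at 23 and 22.9 with BIX and at 6.75 and 10.6 in mock. Apol9a was at 53.5 and 51.6 with BIX and at 2.83 and 11.5 in mock. Ifitm3, a membrane protein that blocks viral entry and the most abundant effector in WT BIX, was at 560.3 and 429. The 2 effectors higher in KO with BIX were Samhd1 and Ifitm1 (1.66 in WT and 4.76 in KO), and Ifitm1 was higher in KO mock too (0.177 and 9.71).

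**Figure D2:**
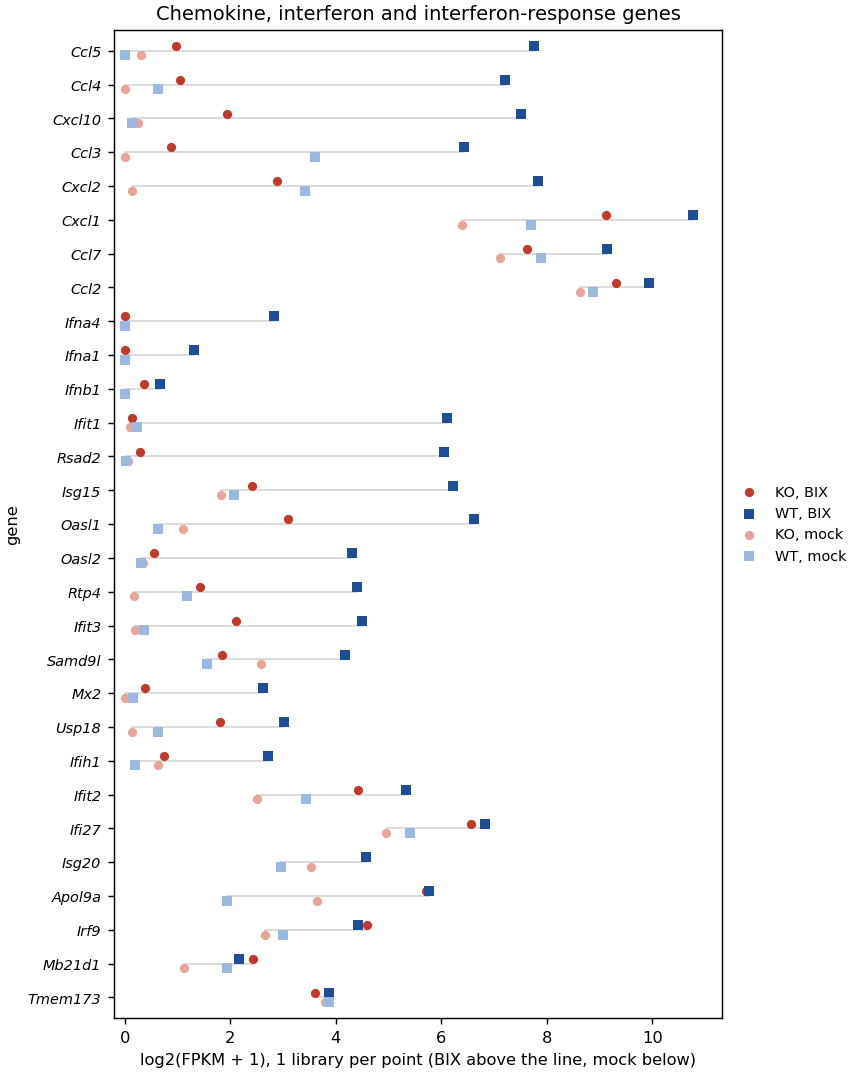
Level of 29 chemokine, interferon, effector and signalling genes as log2(FPKM + 1) in the 4 L929 libraries, 1 point per library, BIX above each line and mock below. In the upper genes, from Ccl5 to Cxcl10 and from Ifit1 to Ifih1, the WT BIX square stands to the right of the other 3 points, and from Ifi27 to Irf9 the 2 BIX points lie together.

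Among RNA sensors, 4 of 20 members were at least 2-fold lower in KO and 1 higher (median -0.15). Of the 4, Ticam1 and Zbp1 are also on the list of cytosolic DNA sensing and were given there. Over all genes 5.27% were lower and 6.42% higher. Ifih1, the gene for the double-stranded RNA sensor MDA5, was at 5.59 in WT and 0.673 in KO with BIX, and at 0.153 and 0.541 in mock. Dhx58, which encodes LGP2, was at 4.39 and 0.936 with BIX. Ddx58, the gene for RIG-I, differed less (8.9 and 6.81) and was above its mock values of 2.51 and 1.43 in both. The adaptor gene Mavs was at 10.11 and 10.5, and Tank, a partner of TBK1, was higher in KO (37.1 in WT and 103 in KO). The interferon-inducible GTPases had 4 of 8 members lower and 0 higher, of which Mx1, Mx2 and Gbp3 are also on the effector list. The fourth, Iigp1, was lower in mock as well (6.12 and 0.221 with BIX, 7.52 and 1.14 in mock). For MHC class I presentation 1 of 25 members was lower and 1 higher, shares near those of all genes: the immunoproteasome subunit gene Psmb8 was at 6.89 and 2.74, H2-Q1 at 2.17 and 7.69, and the light chain gene B2m at 2483 and 1956.

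To see which differences stood without BIX, the same difference was taken between the 2 mock libraries, which share no library with the BIX comparison but come from the same 2 lines. Of the 598 genes lower in KO BIX, 195 (32.6%) were at least 2-fold lower in KO mock, 402 were under 2-fold apart there, and 1 was 2-fold the other way. Among the 402, 349 were lower in KO mock as well, by less than 2-fold, and 53 were equal or higher there. Of the 729 higher, 275 (37.7%) were 2-fold higher in mock, 450 under 2-fold apart and 4 the other way. Among the 450, 330 were higher in KO mock as well, by less than 2-fold, and 120 were equal or lower there. The split is given here for the interferon-stimulated and the matrix genes. Of the 22 interferon-stimulated genes lower with BIX, 15 were under 2-fold apart in mock, 6 were lower there too (Bst2, Gm4951, Iigp1, Rtp4, Slfn2 and Ube2l6) and 1, Samd9l, was higher. However, 12 of the 22 were under FPKM 1 in WT mock. On the log2(FPKM + 1) scale such a gene cannot be 2-fold lower in KO mock, so for these 12 that outcome was fixed beforehand. Of 18 collagen and other matrix genes higher with BIX, 17 were 2-fold higher in mock and 1 was under 2-fold apart. At an FPKM of at least 5 in 1 of the 4 libraries, 216 of 9384 genes (2.3%) had a difference lower with BIX than in mock by at least 1 on the log2 scale, and 242 (2.58%) one higher by as much. The first 8 on the lower side were Ccl5 (-7.09), Ifit1 (-5.81), Rsad2 (-5.79), Cxcl10 (-5.70), Ccl4 (-5.52), Oasl1 (-4.01), Oasl2 (-3.79) and Isg15 (-3.56). Myo1g, a myosin gene of blood cells, and Samd9l followed (-3.37 and -3.37). These differences of differences rest on 4 single libraries and were not tested.

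**Figure D3:**
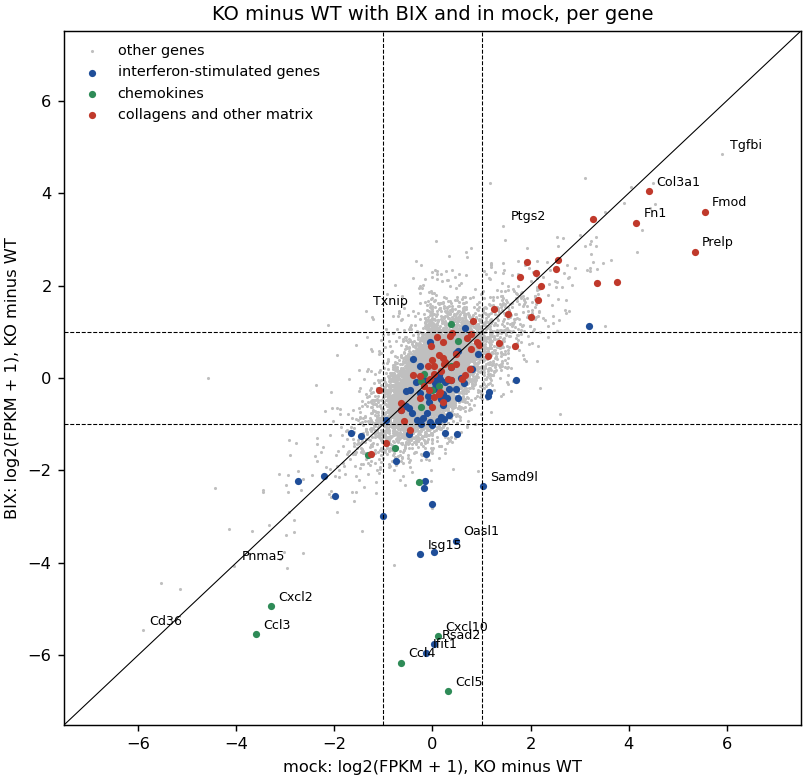
KO minus WT difference of log2(FPKM + 1) in mock (x axis) and with BIX (y axis) for genes at FPKM 1 or more in either pair of libraries; dashed lines mark 2-fold and the diagonal marks equal differences. Ccl5, Ifit1, Rsad2 and Cxcl10 lie near 0 on the x axis and below -5 on the y axis, while Col3a1, Cd36 and Pnma5 lie near the diagonal and Fmod and Prelp below it, past 2-fold on both axes.

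On the higher side of KO, extracellular matrix genes led. Of the 42 members on the list of non-collagen matrix and remodelling genes, 12 were at least 2-fold higher in KO and 1 lower (median 0.66). Of 21 collagens 6 were higher and 2 lower (median 0.26). Over all genes 6.42% were higher and 5.27% lower. The lowest difference was -1.64 among the non-collagen genes and -1.40 among the collagens. With no FPKM limit but a value above 0 in at least 1 BIX library, the medians were 0.25 and 0.06. The higher collagens were those of fibroblast matrix. Col1a2, a chain of type I collagen, was at 309 FPKM in KO and 27.5 in WT with BIX, and at 486 and 49.4 in mock. Col3a1 was at 20.2 and 0.285 with BIX and at 43.5 and 1.1 in mock. Col1a1 (88.2 and 21.4), Col5a2 (23.3 and 4.06), Col6a1 (157 and 26.9) and Col6a2 (97.6 and 18.3) completed the 6, and all 6 were higher in KO mock as well. Fn1, which encodes fibronectin, was at 222 and 20.7 with BIX and at 348 and 18.6 in mock. The small proteoglycan genes Bgn (382 and 63.8), Fmod (18.5 and 0.617) and Ogn (6.93 and 0.75) were higher too. Prelp, another of that family, was at 6.11 and 0.069 with BIX and at 73.1 and 0.824 in mock, so its KO level was far lower with BIX than without. Tgfbi, a secreted matrix protein gene, had the largest difference on this side (31.7 and 0.142 with BIX, 86.5 and 0.458 in mock). Others among the first 15 with the same pattern in mock were Ces1g, Agmo, Pdpn, Cyp4b1 and Scand1. Pdpn, for podoplanin, was at 16.6 in KO BIX and 15.5 in KO mock and listed at 0 in both WT libraries.

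The label of a fibroblast line was checked on 14 fibroblast markers, of which 10 were members. Vim (1183 in KO and 1308 in WT with BIX), S100a4 (2932 and 3199), Sparc (331 and 177) and Pdgfrb (45.8 and 59) were present in both, while Thy1 and Dcn were listed at 0 in all 4 libraries and Lum and Fap stayed under 1. The 4 markers at least 2-fold higher in KO, Col1a1, Col1a2, Col3a1 and Fn1, are matrix genes already given. Summed over the list the level was 5181 in KO BIX and 4853 in WT BIX, and 6475 and 6279.8 in mock. Of the markers of other cell types, 8 of 9 epithelial, 5 of 7 endothelial, 5 of 8 muscle and 4 of 7 neuronal and glial markers stayed under 1 in all 4 libraries. The muscle list summed to 35.2 in KO BIX, 53.8 in WT BIX, 48.9 in KO mock and 78.8 in WT mock, from the troponin gene Tnnt2 (27.8, 48.2, 34.3 and 69.8) and the desmin gene Des (5.04, 4.74, 13.7 and 8.24), with Myod1 listed at 0 in each.

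Genes that were lower in KO both with BIX and in mock formed the other block of the lower side. Cd36, a scavenger receptor and fatty acid carrier, was at 1.05 in KO and 88.9 in WT with BIX and at 1.49 and 148 in mock. Fabp4, a fatty acid binding protein gene, was at 122 and 464 with BIX and at 129 and 585 in mock. Both are known from fat cells, whose defining markers Adipoq (0.411 and 0.224 with BIX) and Plin1 (0.31 and 0.211) stayed under 1 and Lep was listed at 0 in all 4 libraries. Of the 6 adipocyte markers, 3 stayed under 1 in all 4 libraries. The summed level over the 6 was 254 in KO BIX, 559.7 in WT BIX, 173 in KO mock and 659.9 in WT mock. Fabp4 carried most of this level except in KO BIX (122 of 254). Pparg, a nuclear receptor of fat cells, was at 132 in KO and 93.8 in WT with BIX and at 43.2 and 73.5 in mock, and the lipid droplet gene Cidec at 0.342 and 1.007 with BIX. The part of such cells was not tested. H2-M10.1, a class I-like gene, was at 22.7 in WT BIX and 34.2 in WT mock and listed at 0 in both KO libraries. Pnma5 was at 2.15 and 51.7 with BIX and at 6.38 and 120.0 in mock. Serpinb9g, of a family of serine protease inhibitors with close copies, was at 1.84 and 47.8 with BIX and 0.30 and 9.09 in mock. AI662270 and Tmem182 were also 2-fold lower in KO in both treatments (log2 differences with BIX of -4.42 and -3.91, in mock of -5.53 and -3.10). Of the 15 largest differences on this side, Sprr1a, a gene of the cornified envelope, was at 24.9 in WT BIX and 0.564 in KO BIX and under 1 in both mock libraries.

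**Figure D4:**
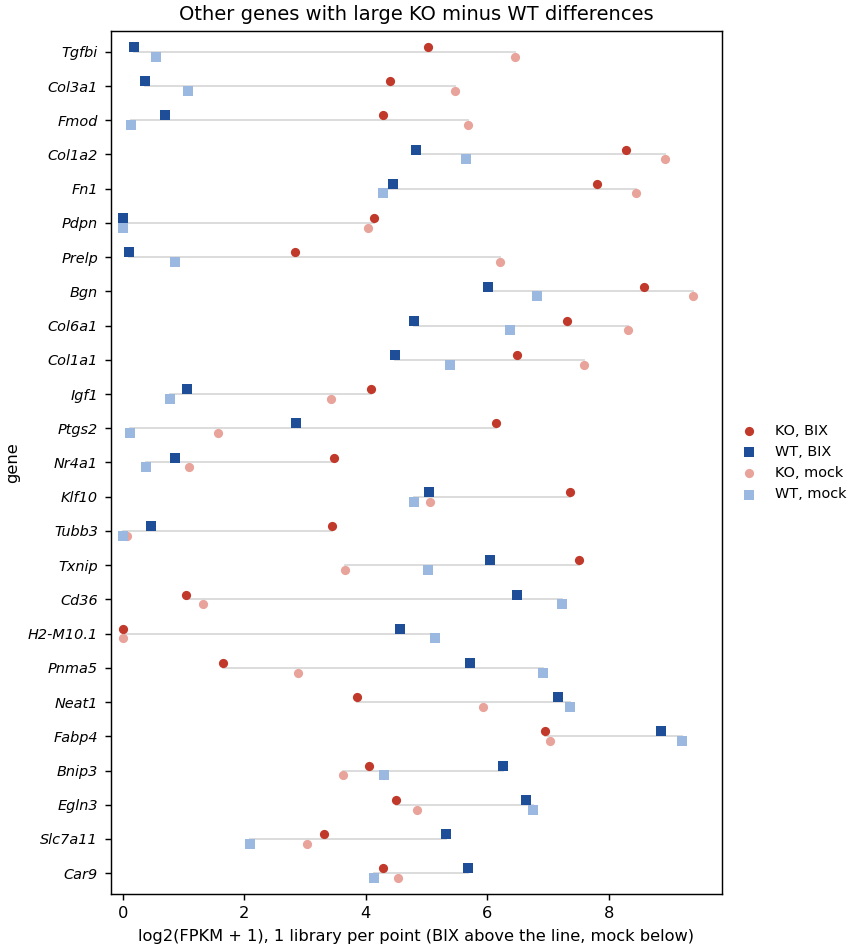
Level of 25 genes as log2(FPKM + 1) in the 4 L929 libraries, 1 point per library, BIX above each line and mock below. From Tgfbi to Igf1 both KO points stand to the right of both WT points, and for Cd36, H2-M10.1, Pnma5 and Fabp4 to the left of them.

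NF-kappaB and inflammatory genes went both ways. Of 36 members 7 were at least 2-fold lower in KO and 3 higher, against 5.27% and 6.42% of all genes. The median was -0.21. Lower in KO with BIX were Il6 (10.0 in KO and 26.3 in WT), the inducible nitric oxide synthase gene Nos2 (0.618 and 4.03), Tlr2 (6.19 and 17.2) and Cebpd (4.31 and 13.1). Il6 was lower in KO mock too (0.764 and 4.85), as was Tlr2 (4.86 and 15.7). Ptgs2, which encodes the prostaglandin synthase COX-2, was far higher in KO: it was at 69.6 and 6.22 with BIX and at 1.96 and 0.0889 in mock. The adhesion gene Icam1 was at 2.66 and 0.10 and the subunit gene Rel at 8.98 and 3.88. The inhibitor Nfkbia, a direct NF-kappaB target, was at 191 in KO BIX and 203 in WT BIX, against 48.6 and 72.5 in mock. Tnf was at 23.5 and 15.2 with BIX and 1.18 and 0.957 in mock. For these 2 targets KO BIX was not below WT BIX by 2-fold and both BIX libraries were above both mock libraries.

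Immediate early genes had 3 of 37 members at least 2-fold higher in KO and 4 lower, against 6.42% and 5.27% of all genes (median -0.12). The nuclear receptor gene Nr4a1 was at 10.12 in KO BIX and 0.822 in WT BIX, Klf10, a TGF-beta-inducible repressor gene, at 163 and 31.9, and Egr2 at 6.63 and 2.29. In mock Klf10 was at 32.4 and 26.7, so it stood apart in KO BIX alone among the 4 libraries. Ier3, a survival gene also on the NF-kappaB list, was lower in KO with BIX (238 and 725) and in mock (19 and 64.9), as were the phosphatase gene Dusp5 (25.9 and 66.1 with BIX) and Fosl1 (79.2 and 161). The antiproliferative gene Btg2 was at 2.16 and 6.54 with BIX and under 2-fold apart in mock.

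Genes of glycolysis and hypoxia were lower in KO as a group. Of 34 members 13 were at least 2-fold lower and 0 higher, against 5.27% and 6.42% of all genes. Below 0 lay 26, and the median was -0.82 with BIX and -0.19 in mock. Aldoa, an aldolase, was at 465 FPKM in KO and 1299 in WT with BIX, and at 608 and 1149 in mock. Slc2a1, the glucose transporter gene for GLUT1, was at 46.1 and 140.2, and Eno2, an enolase, at 5.75 and 22.5. Bnip3, a mitophagy receptor that HIF1 induces, was at 15.6 and 75.9 with BIX and at 11.3 and 18.6 in mock: WT BIX was high and the other 3 libraries were lower. Egln3, an oxygen-sensing prolyl hydroxylase, was lower in KO in both treatments (21.6 and 98.5 with BIX, 27.8 and 106 in mock). Pfkfb3, at 1.84 in WT BIX, was listed at 0 in KO. Of the 13 lower with BIX, 4 were also 2-fold lower in mock. Hif1a was not among the 13. Gapdh, often used as a reference gene, was at 1263 in KO BIX and 2475 in WT BIX, while Actb was at 1990.3 and 1985.

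Antioxidant genes under the transcription factor NRF2 were lower in KO too, with 6 of 30 members at least 2-fold lower and 0 higher. Over all genes 5.27% were lower and 6.42% higher. The NRF2 list had a median of -0.43, against 0.05 for the same genes in mock. The factor's own gene Nfe2l2 was at 53.8 in KO and 109 in WT with BIX. Slc7a11, the cystine importer, was at 8.96 and 39 with BIX and at 7.19 and 3.28 in mock, so KO was the lower one with BIX and the higher one in mock. Heme oxygenase, Hmox1, was at 109 and 248, catalase (Cat) at 6.9 and 23.2, and sulfiredoxin, Srxn1, at 48.7 and 103. None of the 6 was 2-fold lower in mock. Nqo1, a quinone reductase, was higher in KO by just under 2-fold on the log2(FPKM + 1) scale (16.9 and 8.16). The zinc-binding metallothionein genes Mt1 (1314 in KO and 3506 in WT) and Mt2 (897 and 2116) were lower in KO BIX and above both mock values in each genotype.

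Cell cycle genes lay on the higher side of KO. DNA replication genes had 6 of 61 members at least 2-fold higher, 0 lower and 54 above 0, with a median of 0.52 with BIX and 0.25 in mock. Dscc1, a part of an alternative clamp loader, was at 7.37 in KO and 1.46 in WT with BIX, the polymerase alpha gene Pola1 at 24.3 and 7.65, and the helicase subunit genes Gins2 at 35.7 and 11.8 and Mcm6 at 84 and 40.8. Mitosis and kinetochore genes had 5 of 71 higher, 0 lower and 63 above 0, with a median of 0.32 and 0.03 in mock. Nusap1, a spindle protein gene, was at 33.9 and 12.2, and Cenpn, which binds centromeric nucleosomes, at 22.6 and 6.16. These counts stand against 6.42% of all genes past 2-fold and 52.0% of all genes above 0, so most of the cell cycle members were shifted by less than 2-fold. Ribosomal protein genes lay the other way, with 12 of 82 above 0, 0 past 2-fold and a median of -0.28, the same as in mock. After quantile normalization of the BIX pair that median was -0.01, so its place below 0 depends on the scaling.

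Replication-dependent histone genes are normally made in S phase without a poly(A) tail. With BIX 9 of 38 members were at least 2-fold higher in KO and 2 lower, against 6.42% and 5.27% of all genes. The median was 0.40, or 0.89 at an FPKM of at least 5. In mock 0 of 20 were higher and 6 lower (median -0.55), against 4.7% and 3.13% of all genes. Hist1h1e, a linker histone gene, was at 10.4 in KO BIX and 0.976 in WT BIX and at 0.143 and 0.439 in mock. Hist1h3e was at 10.2 and 2.01 with BIX and 0.583 and 0.607 in mock, and Hist1h2ak at 6.68 and 0.987 and at 0.239 and 0.494. For these 3 genes KO BIX stood above the other 3 libraries. Hist1h2bc, which also makes a polyadenylated form, was the other way round (15.8 in KO and 35.8 in WT with BIX). The libraries were poly(A)-selected and many of these genes are near-identical copies, so single values are uncertain and need not follow total histone RNA.

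Among stress programs, the list of ATF4 and amino acid response genes had 0 of 47 members at least 2-fold higher in KO and 2 lower. The shares of all genes were 6.42% and 5.27%. The median of the ATF4 list was -0.27 with BIX and 0.17 in mock. Besides Slc7a11 the lower one was the hormone gene Fgf21 (0.675 and 3.07). The stress factor Ddit3 was at 186 in KO and 225 in WT with BIX. Chaperone and folding genes of the endoplasmic reticulum had 3 of 33 lower and 0 higher with BIX (median -0.30) and 11 of 33 lower in mock (median -0.71), so the median lay closer to 0 with BIX. Hspa5, the main chaperone there, was at 565 and 1243 with BIX and at 752 and 2566 in mock. Of cytosolic heat shock genes 3 of 34 were higher and 2 lower, with Cryab at 9.52 in KO and 2.23 in WT. The p53 targets had 2 of 30 higher and 2 lower, near the 6.42% and 5.27% of all genes. The stress gene Gadd45g was at 319 and 125 and the costimulatory gene Cd80 at 15.3 and 4.03, while the cell cycle inhibitor gene Cdkn1a was at 231 and 437. Of 25 cell death genes 3 were higher and 0 lower, and the 3 were higher in mock as well. Among them were the inflammatory caspase genes Casp1 (18.9 and 5.75 with BIX) and Casp4 (111 and 42.2).

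Autophagy genes as a list lay at the background, with 2 of 46 members at least 2-fold higher in KO, 3 lower and a median of 0.02. Map1lc3b, which encodes the autophagosome protein LC3B, was at 151 in KO and 53.7 in WT with BIX and at 63.2 and 32.7 in mock, and its relative Gabarapl2 at 74.1 and 27.4 with BIX. Sqstm1, the receptor p62, was at 616 and 834. The lower ones were Bnip3, the lipid transfer gene Atg2a (2.1 and 6.11) and Calcoco1 (3.13 and 8.3). Lysosomal genes had 4 of 54 higher and 4 lower, near the 6.42% and 5.27% of all genes. They were led by alpha-galactosidase, Gla (45 and 9.56 with BIX, 9.37 and 7.47 in mock), and by the small GTPase gene Rragd on the lower side (1.11 and 6.55). Of the H3K9 methylation genes 1 of 31 was 2-fold higher and 0 lower. Ehmt2, a target of BIX, was at 49.1 and 31.1 with BIX and at 70.4 and 67.3 in mock, and Ehmt1 at 9.04 and 10.5 with BIX. The one past 2-fold was Dnmt3l, a germline cofactor of DNA methylation, at 4.41 in KO BIX and 6.27 in KO mock and at 0 and 0.0937 in WT. Sterol synthesis genes had 3 of 23 higher and 0 lower, against 6.42% and 5.27% of all genes (median 0.39). The 3 were Cyp51 (256 and 109.5), Msmo1 (196 and 85.8) and Idi1 (146 and 70.3). Fatty acid synthesis genes had 3 of 22 lower and 0 higher, against 5.27% and 6.42% of all genes. The fatty acid synthase gene Fasn was among the lower ones (45.2 and 95.3). Zinc finger Zfp genes lay at the background (15 of 272 higher, 8 lower, median 0.04).

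**Figure D5:**
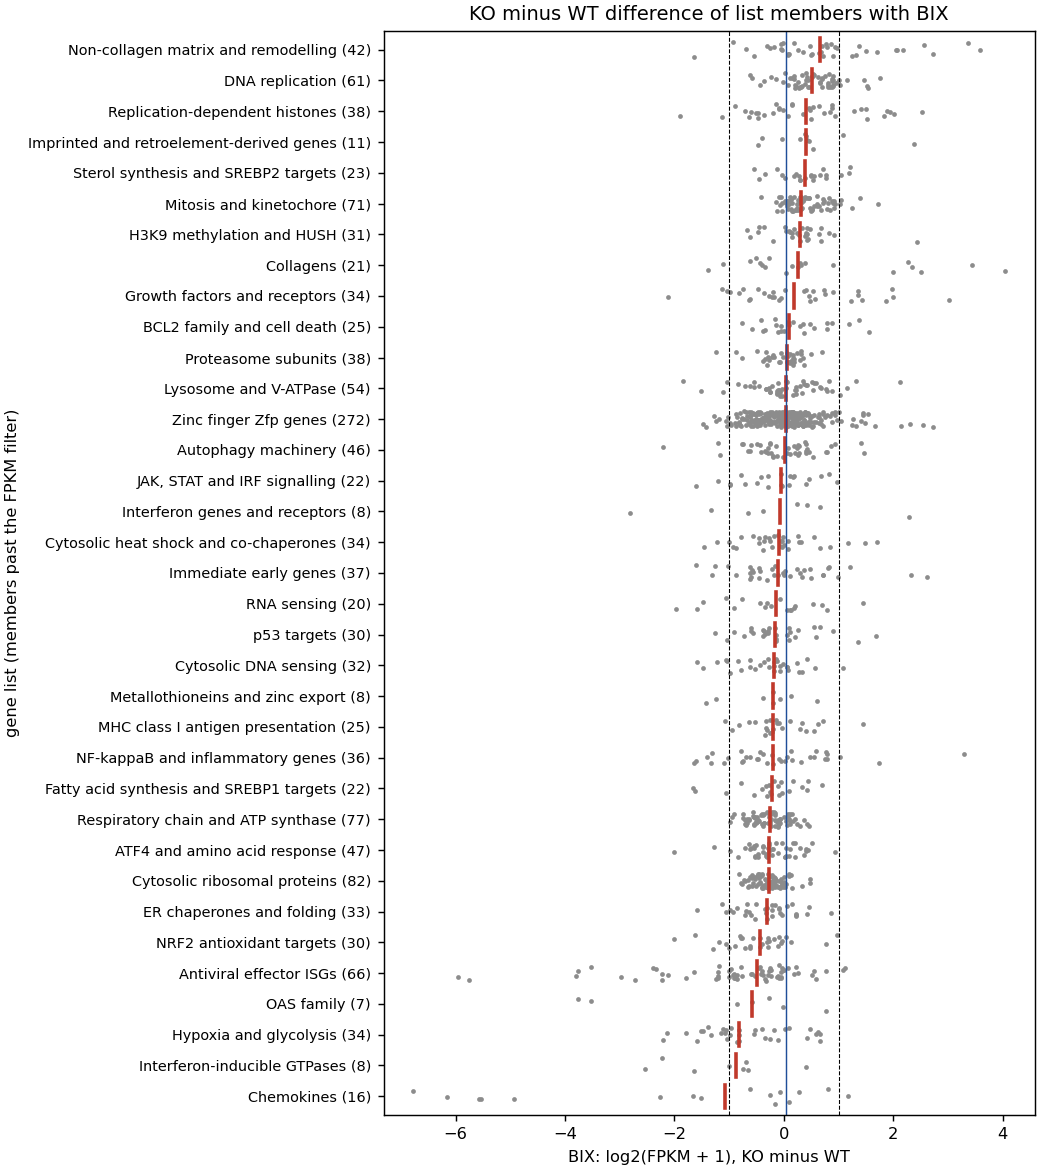
KO minus WT difference of log2(FPKM + 1) with BIX for the members of each gene list with at least 5 members (grey points, 1 per gene), the list median (red bar), 2-fold (dashed lines) and the median of all 11358 genes (blue line). Among members past the FPKM limit, chemokines have the lowest median (-1.07) and non-collagen matrix genes the highest (0.66). With no limit but a value above 0 in at least 1 BIX library these medians are -0.33 and 0.25.

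Secreted growth factor genes and their receptors had 8 of 34 members at least 2-fold higher in KO and 3 lower (median 0.19). Over all genes the shares were 6.42% higher and 5.27% lower. Igf1, insulin-like growth factor, was at 15.9 in KO and 1.08 in WT with BIX and at 9.81 and 0.713 in mock, and its binding protein genes Igfbp4 (237 and 63.8 with BIX) and Igfbp6 (369 and 136) were higher too. Ntf3, a neurotrophin gene, was at 3.43 and 0.104 with BIX and under 1 in both mock libraries. Among genes whose difference was more positive with BIX than in mock, the first 10 held the kinase gene Lck of T cells as a locus joined with a microRNA gene (Lck,Mir8119: 20.9 in KO BIX, 0.187 in WT BIX, 1.98 in KO mock and 0.325 in WT mock). Tubb3, a tubulin gene used as a neuronal marker, was at 9.85 in KO BIX and 0.382 in WT BIX and at 0.0564 or below in mock, while the neuronal genes Snap25 and Syt1 were listed at 0 in all 4 libraries. For the Lck locus and Tubb3, KO BIX was the high library. Neat1, a long nuclear RNA, was the lowest in KO BIX, with 13.4, against 142 in WT BIX, 59.9 in KO mock and 164 in WT mock.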

How the data were processed

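RNA was sequenced from 4 L929 samples, 1 library per group. Per the labels' protocols, mRNA was selected on oligo-dT beads and made into TruSeq libraries that were sequenced as paired ends on an Illumina instrument. Per the submitters' processing notes, FastQC, cutadapt, TopHat2 and Cufflinks were used, and mm10 is among the builds named; the sources used here do not give versions, annotation or strand setting. The authors deposited FPKM per gene symbol, and these FPKM values were used as they stood. The column sums were 521478 (KO BIX), 559812 (WT BIX), 484877 (KO mock) and 526249 (WT mock). Of 24138 rows, the entry with the highest mean was kept for a repeated symbol (289 dropped), 1126 short non-coding RNA genes were left out by name, and 312 joined loci were kept. FPKM was used as log2(FPKM + 1), and genes at FPKM 1 or more in 1 of the 2 values were called apart at 2-fold. No test was run. Relative depth is the commonest FPKM ratio among genes under 0.3, where 17.3% to 21.1% of genes fell in 1 window of 1%. Counting was tested on simulated data. Python 3.11.15 and pandas 2.3.3 were used.

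Named genes are the target, the 15 largest differences in each direction at FPKM 5 or more, up to 6 members per list past 2-fold, members of the sensing, interferon and JAK-STAT lists, and the 10 largest changes against mock in each direction. List members named for close values, Gapdh, Actb, Neat1, Fabp4 and further members past the 6 were picked after their values were seen, and not every gene that meets the rule is named. The members and the 38 gene lists were chosen with earlier results of these data known. List counts are to be read against those of all genes with BIX, 6.42% at least 2-fold higher in KO and 5.27% lower. Not every paragraph repeats these shares. Mouse promoter and protein sequences were not used here.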

Additional observations from a re-analysis of the deposited data

Results flagged for a closer look

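Of the genes at least 2-fold apart between KO and WT both with BIX and in mock, 5 stood apart in opposite directions. This was not tested, since each value is 1 library. Samd9l, an interferon-stimulated gene, was higher in KO mock than in WT mock (5.0 and 1.93 FPKM) and lower with BIX (2.59 and 17.1), and its log2 difference with BIX minus that in mock was -3.37. For the other 4 the KO was lower in mock and higher with BIX. Txnip, a regulator of glucose uptake, was at 11.6 in KO and 31.3 in WT in mock and at 180.3 and 65.3 with BIX (2.81). Ufsp1, of the UFM1 pathway, was at 3.82 and 10.4 in mock and 28.6 and 10.8 with BIX (2.56). Hist1h4d, a histone gene with near-identical copies, was at 0.441 and 2.33 in mock and 11.8 and 4.31 with BIX (2.48). Gm20594, a predicted gene, was listed at 0 in KO mock and stood at 3.4 in WT mock, with 9.49 and 3.73 with BIX (3.29).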

How the results depend on the processing

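The 2 sides were recounted under 11 alternatives. With a pseudocount of 0.1, 1116 genes were higher and 928 lower in KO and 16 histone genes higher. With an FPKM of at least 5 in 1 value, 484 genes were higher, 444 lower and 5 histone genes higher. At 1.5-fold the counts were 1969 and 1680, and 41.1% of the lower genes were at least 1.5-fold lower in mock too. At that threshold 13 NRF2 targets were lower, 22 non-collagen matrix genes higher and 15 histone genes higher. At 4-fold the counts were 107 and 73, and 51.4% and 45.2% of these were at least 4-fold apart the same way in mock. At least 2-fold apart the same way in mock were 79 of the 107 and 50 of the 73. At 4-fold 12 antiviral effectors, 2 glycolysis genes and 1 NRF2 target were lower and 7 matrix and 2 histone genes higher. Centring removed a shift of 0.03, gave 679 and 667, and left 28.2% of the lower genes lower in mock. Without a filter the counts of 729 and 598 did not move, which the pseudocount of 1 fixes. Genes at 0 in both BIX libraries stayed out of that setting. The 825 values for 165 named genes came from the other pseudocounts, centring, quantile normalization and summed repeated symbols. The 108 list medians came from all alternatives but the changed fold thresholds. Of these values 0 turned in direction. A change of pseudocount cannot turn a gene's direction, and centring by 0.03 can turn only smaller differences. For the genes this outcome was thus largely fixed beforehand. By over 1.5 times moved 35 of the gene values and 5 of the medians. The 5 medians were those of chemokines (-0.33), collagens (0.06) and other matrix (0.25) with no filter, histones (0.89) at FPKM 5, and ribosomal proteins (-0.01) after quantile normalization. Quantile normalization was not applied to the mock libraries, so the shares in mock were not recomputed under it. The planned count of promoter motifs was not run.

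No paired analysis was possible because each group had 1 library. With 1 library a side, sampling of cells, culture, library and line cannot be told apart from genotype, and no error can be given. Read counts were not used here, so no counting interval is given; the smaller WT BIX library makes its low values the less precise.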

Other observations

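Arrdc4, a gene of the same arrestin family as Txnip, had a like pattern, with 4.84 FPKM in KO mock, 16.2 in WT mock, 24.6 in KO BIX and 14.6 in WT BIX. It was picked after its values were seen. Id3, an inhibitor of helix-loop-helix factors, was at 153 in KO BIX and 22.4 in WT BIX and at 49 and 30.1 in mock, and the homeobox gene Hoxc4 at 29.9 and 5.1 with BIX and 7.83 and 5.67 in mock. Dlx2, another homeobox gene, was at 47.9 and 12.6 with BIX and 7.92 and 8.37 in mock. In each of these 3 genes KO BIX stood above the other 3 libraries. They too were chosen after their values were seen. Gm12238, a predicted gene, was listed at 0 in both BIX libraries and in KO mock and stood at 22.9 in WT mock.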
